A study of Homo sapiens with 6 samples.

Results

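DDX18 knockdown was examined within H9, an established line of human embryonic stem cells, by setting libraries made with the hairpins shDDX18#1 and shDDX18#3 against a library made with a luciferase hairpin, shLuc. These are 3 of the 6 RNA libraries of the series, chosen by the cell line and hairpin named in their labels, and no library of the second line, HES2, enters any value. In each case H9 cells grown on irradiated mouse embryonic fibroblasts, with basic FGF in the medium, received hairpin virus and were harvested at day 4. The knockdown group therefore holds 2 libraries, 1 for each hairpin, and the control group holds 1. The labels name no clone, selection step or separate culture, and each hairpin was sequenced 1 time in H9, so a difference between hairpins and a difference between cultures cannot be told apart. The luciferase hairpin is directed at a firefly gene that human cells lack. The design text of the series gives the role of DDX18 in stem cell identity as the question behind the RNA libraries.

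DDX18 belongs to the DEAD-box family of RNA helicases and resides in the nucleolus, where ribosomal RNA is transcribed and assembled with proteins into ribosomal subunits. Its yeast relative, Has1, is needed for the assembly of both subunits. Human embryonic stem cells divide rapidly with a short G1 phase, and their undifferentiated state rests on a small network of transcription factors that includes SOX2, NANOG and POU5F1. Defects in ribosome assembly are known in many cell types to stabilise p53, the transcription factor that turns on cell cycle inhibitors such as CDKN1A.

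The values are read counts scaled per 1000000 of library size after TMM scaling, a correction for differences in composition, and are called CPM here. The libraries held 2668179 reads for shDDX18#1, 3178058 for shDDX18#3 and 3647530 for shLuc, so that 1 read was worth 0.408, 0.324 and 0.277 CPM in that order. These depths are low for RNA-seq, and values near 1 CPM rest on a handful of reads. Of 17929 genes in the table, 16705 averaged at least 1 CPM over the 3 H9 libraries and were tested. Differences are given as log2(CPM + 1) in a knockdown library minus that in shLuc, which understates the change of genes with few reads.

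DDX18 itself (ENSG00000088205, chromosome 2) was low in both knockdown libraries. It had 19.2 CPM with shDDX18#1 and 47.3 CPM with shDDX18#3, against 153 CPM with shLuc. Both hairpin libraries lay far below the control, and shDDX18#1 left less of the transcript than shDDX18#3. The remaining level was 12.6% of the control with shDDX18#1 (95% interval from counting error alone, 9.12 to 16.9%) and 31.0% with shDDX18#3 (25.6 to 37.2%). In limma-trend with Benjamini-Hochberg adjustment over all genes tested, the change was -2.30 on the log2 scale (SE 0.46, adjusted p = 0.0157). As the transcript that the hairpins target, DDX18 serves as a check of the labels.

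Many more genes were higher than lower after knockdown. At least 2-fold higher with each hairpin were 1361 of the 16705 genes tested (8.15%), and at least 2-fold lower with each were 344 (2.06%). Only 4 genes (0.0239%) passed 2-fold in opposite directions, and since both hairpins are set against the same shLuc library, an unusual value in that library moves both differences the same way. That rule of size carries no test, because each side is 1 library. By limma, with the hairpins as samples of knockdown, 531 genes rose (3.18%) and 81 fell (0.485%) at an adjusted p under 0.05. All of these were also past 2-fold with each hairpin. The words "rose" and "fell" below refer to the limma calls, and "higher" or "lower with both hairpins" to the 2-fold rule. The counts for gene lists below are to be read beside the shares of all genes tested given here. The limma test has 1 residual degree of freedom and assumes that shLuc varies as the hairpin libraries do. Its calls rest on the filter and on the trend of variance with level: without the filter, or without the trend, no gene passed an adjusted p of 0.05, with 2382 and 2420 genes at an unadjusted p under 0.05, while edgeR's quasi-likelihood test on the recovered reads called 390 rises and 70 falls.

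More genes passed 2-fold with shDDX18#1, which left less DDX18, than with shDDX18#3. With 1 library per hairpin, and fewer reads with shDDX18#1, a link to the level of DDX18 was not tested. Past 2-fold against shLuc were 2613 genes higher and 1729 lower with shDDX18#1, and 1738 higher and 537 lower with shDDX18#3. Of the 1361 genes higher with both, 1057 differed more with shDDX18#1 and 304 more with shDDX18#3. The median log2 difference of these genes was 2.0 with shDDX18#1 and 1.51 with shDDX18#3, and that of the 344 genes lower with both was -1.76 and -1.26. The genes higher with both hairpins were mostly expressed at a low level in control cells, with a median of 3.60 CPM with shLuc, against 18.8 CPM over all genes tested, and 76 of them had no read there. They took up 20.0% of reads with shDDX18#1 and 11.5% with shDDX18#3, against 3.05% with shLuc. The genes lower with both had a control median of 22.0 CPM. Both medians belong to genes that the rule chose with the control value in it, and are given as a description.

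The 12 largest rises shared by both hairpins included the surface enzyme gene NT5E, the ubiquitin ligase gene MARCH4 and the collagen gene COL22A1. NT5E, known as CD73, makes adenosine and had 51.5 CPM with shDDX18#1 and 81.0 CPM with shDDX18#3, against 2.49 CPM with shLuc (log2 change 4.23, SE 0.44, adjusted p = 0.000853). MARCH4, a membrane-bound ubiquitin ligase, had 44.9 and 52.5 CPM in the same order, against 1.94 CPM with shLuc (4.08, SE 0.44, adjusted p = 0.000998). COL22A1, a collagen of tissue junctions, had 141 and 104 CPM, against 6.64 CPM with shLuc (4.00, SE 0.37, adjusted p = 0.000818). For each of the 3 the hairpin libraries lay close together and well above the control. IL11, a secreted cytokine of the IL6 family, had 38.4 and 50.2 CPM, against 2.21 CPM with shLuc (3.80, SE 0.45). The growth factor FGF1 had 22.5 and 30.1 CPM, against 0.831 CPM with shLuc, which is 3 reads. Its ratio to shLuc was 27.0 with shDDX18#1 (95% counting interval 8.78 to 135) and 36.3 with shDDX18#3 (12.04 to 179), so that the direction is clear at this depth and the size is not. The matrix protein gene LTBP2 had 920 and 341 CPM, against 27.1 CPM with shLuc (4.32, SE 0.47), and ITGA11, a collagen receptor subunit, had 306 and 152 CPM, against 12.5 CPM (4.01, SE 0.41). These were about as large a change as that of NT5E, but for both genes the level with shDDX18#1 was well above that with shDDX18#3. The kinase gene WNK4, a regulator of ion transport, and the ligand gene TGFB2 were also among them, with log2 changes of 3.91 and 3.40. ACTA2, the smooth muscle actin, had 209 and 281 CPM, against 20.2 CPM with shLuc (3.52, SE 0.34). ACTA2-AS1 had 80.4 and 136 CPM, against 6.37 CPM with shLuc. It overlaps ACTA2, and as no strand setting is given in the sources used here, reads of these genes and of the neighbouring FAS may not be separable.

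The 12 largest falls shared by both hairpins included PRDM14, FOXB1, FEZF1 and the metallothionein genes MT1G and MT1H. PRDM14, a transcriptional repressor of the pluripotency network, had 21.2 CPM with shDDX18#1 and 34.7 CPM with shDDX18#3, against 143 CPM with shLuc (log2 change -2.35, SE 0.39, adjusted p = 0.00588). FOXB1, a forkhead factor of the early neural tube, had 0.408 CPM with shDDX18#1, which is 1 read, and 1.62 CPM with shDDX18#3, against 35.7 CPM with shLuc (-4.26, SE 0.62, adjusted p = 0.00295). FOXB1 was close to absent in both hairpin libraries and plainly expressed in the control. FEZF1, a zinc finger factor of the forebrain, had 1.23 and 3.89 CPM, against 26.6 CPM with shLuc (-3.06, SE 0.62, adjusted p = 0.0165). HPDL, a mitochondrial dioxygenase, had 9.39 and 13.3 CPM, against 55.4 CPM (-2.21, SE 0.44), and PIPOX, a peroxisomal oxidase, had 4.08 and 6.16 CPM, against 27.7 CPM (-2.25, SE 0.53). All of these lay several-fold below the control with either hairpin. The phospholipase gene PLA2G3, the riboflavin transporter gene SLC52A3, WDR76, TMSB15A and the kinase gene LCK fell by 3.13, 2.69, 2.47, 2.33 and 2.63 on the log2 scale in that order. The remaining members were the metallothionein genes MT1G and MT1H, described below. PLA2G3, LCK, FEZF1 and SLC52A3 had 2, 2, 3 and 3 reads in their lowest library, so the sizes of their changes are loose.

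**Figure D1:**
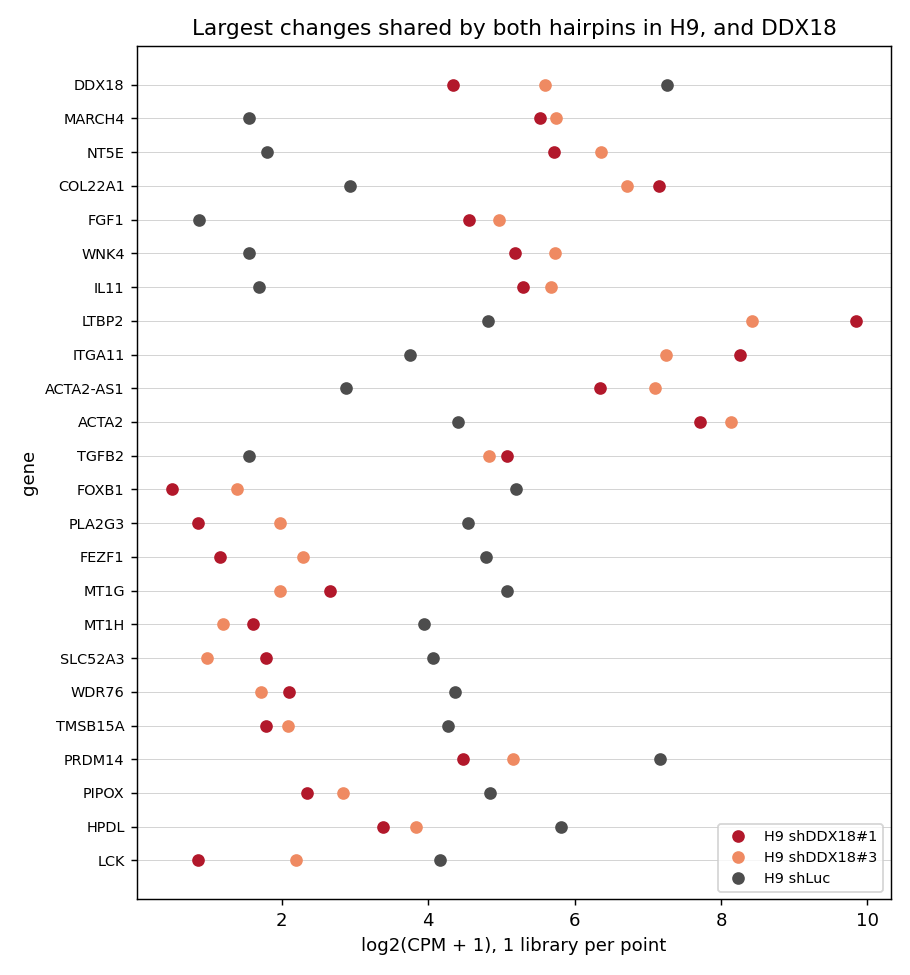
Each row is 1 gene and each point 1 H9 library, on an axis of log2(CPM + 1), for DDX18, 11 of the 12 genes with the largest rise and the 12 with the largest fall shared by both hairpins. The shDDX18#1 and shDDX18#3 points lie on the same side of the shLuc point in every row, as the choice of genes requires, and are farthest from each other for LTBP2 and LCK among these genes and for DDX18.

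Of the pluripotency genes, 37 were tested, and none was higher with both hairpins, 10 were lower with both, and 7 fell. Over all genes tested, 2.06% were lower with both and 0.485% fell. Their median log2 difference was -1.54 with shDDX18#1 and -0.86 with shDDX18#3, beside -0.02 and 0.00 over all genes tested. SOX2, a core factor of the network, had 82.1 and 178 CPM in the hairpin libraries, against 422 CPM with shLuc (log2 change -1.80, SE 0.42, adjusted p = 0.0305). DNMT3B, a de novo DNA methyltransferase that marks the undifferentiated state, had 336 and 466 CPM, against 1527 CPM (-1.95, SE 0.38, adjusted p = 0.0144). TERF1, a telomere protein abundant in these cells, had 50.6 and 94.0 CPM, against 343 CPM (-2.30, SE 0.38, adjusted p = 0.00655). In each of the 3, both hairpin libraries lay below the control, with shDDX18#1 the lowest. FGF4, a growth factor gene of undifferentiated cells, had 1 read with shDDX18#1 and none with shDDX18#3, against 45 reads with shLuc, so that its level with shDDX18#3 was at least 12.8-fold lower when set against a floor of 3 reads. The others that fell were PRDM14, described above, VRTN and SFRP2. NANOG had 23.3 and 46.7 CPM, against 90.8 CPM with shLuc, and did not pass the test (-1.43, adjusted p = 0.0867). LIN28A, an RNA-binding repressor of let-7, had 662 and 773 CPM, against 1214 CPM (-0.76, adjusted p = 0.338), and TDGF1, a NODAL co-receptor, 176 and 225 CPM, against 424 CPM (-1.09, adjusted p = 0.106). The gene listed as POU5F1 had under 2 CPM in every library, and its near-identical copies POU5F1B, POU5F1P3 and POU5F1P4 together held 92.3 and 154 CPM, against 267 CPM with shLuc, so that the reads of POU5F1 cannot be assigned with certainty. The stem cell identity of the libraries was read from 10 defining markers: all 10 had reads in every library, and together they held 0.405% and 0.532% of reads, against 0.757% with shLuc. PODXL, a surface sialomucin among them, was not lower, at 2502 and 2757 CPM, against 2143 CPM with shLuc.

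Of 50 genes of DNA replication and S phase, 48 lay below the control with both hairpins. Of the list, 16 were lower with both hairpins and 7 fell, and none was higher, beside 2.06% lower and 0.485% that fell among all genes. The list's median log2 difference was -1.63 with shDDX18#1 and -0.72 with shDDX18#3. Its share of reads was 0.175% and 0.335%, against 0.590% with shLuc. MCM6, a subunit of the replicative helicase, had 62.9 and 81.7 CPM, against 223 CPM with shLuc (log2 change -1.62, SE 0.33, adjusted p = 0.0176). MCM10, which helps to load the polymerases, had 11.4 and 24.6 CPM, against 77.2 CPM (-2.13, adjusted p = 0.0235), and E2F1, an activator of S phase genes, had 11.03 and 14.6 CPM, against 49.8 CPM (-1.89, SE 0.43, adjusted p = 0.03). The control was the highest library for all of these. E2F2, a related activator, had 1 read with shDDX18#1 (0.408 CPM) and 1.62 CPM with shDDX18#3, against 7.20 CPM with shLuc, and did not pass the test (adjusted p = 0.106). CCNE1, the cyclin that drives entry into S phase, did not pass either (-1.49, adjusted p = 0.0691).

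E2F factors bind a short motif near the start sites of many S phase genes, and the promoters of MCM6 and E2F2 show it. The letters TTTNGCGC were searched on both strands of RefSeq promoter windows (GRCh38.p14), which run from 250 bases before to 50 after the start of each gene. MCM6 (chr2:135876394-135876693, minus strand) holds 4 matches and E2F2 (chr1:23531184-23531483, minus strand) holds 2, counting both strands, where matches on opposite strands overlap. Capitals mark the matches.
MCM6: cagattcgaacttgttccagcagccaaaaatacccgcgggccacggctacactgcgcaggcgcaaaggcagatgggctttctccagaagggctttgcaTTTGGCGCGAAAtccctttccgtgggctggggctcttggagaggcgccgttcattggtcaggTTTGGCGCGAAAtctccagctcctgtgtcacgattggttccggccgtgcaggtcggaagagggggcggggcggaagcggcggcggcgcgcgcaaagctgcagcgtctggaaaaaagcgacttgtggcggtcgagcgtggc
E2F2: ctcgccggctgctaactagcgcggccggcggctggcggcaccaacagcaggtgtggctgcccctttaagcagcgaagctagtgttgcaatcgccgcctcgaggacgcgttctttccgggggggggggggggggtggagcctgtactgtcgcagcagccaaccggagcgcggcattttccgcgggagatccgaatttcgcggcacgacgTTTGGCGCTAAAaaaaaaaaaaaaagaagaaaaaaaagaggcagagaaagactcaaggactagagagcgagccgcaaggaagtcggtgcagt
The motif was found in 1.79% of 35116 promoters. It was found in 17 of the 40 replication and S phase genes with a promoter sequence (42.5%), and in 8 of the 13 of these that were lower with both hairpins (61.5%). A match describes letters in a window and not a bound site.

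Of 42 genes of G2 and mitosis, 3 were lower with both hairpins and 2 fell, beside 2.06% and 0.485% of all genes tested. CCNA2, a cyclin of S and G2 phase, had 45.7 and 85.6 CPM, against 181 CPM with shLuc (log2 change -1.52, adjusted p = 0.0487). The mitotic kinesin gene KIF20A had 28.2 and 50.6 CPM, against 116 CPM (-1.59, adjusted p = 0.043). The list's median was -1.35 with shDDX18#1 and -0.51 with shDDX18#3, and all 42 members were lower with shDDX18#1 than with shDDX18#3. The replication list showed the same ordering in 48 of 50 members.

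Of 49 targets of p53 tested, 40 lay above the control with both hairpins. Of the list, 19 were higher with both hairpins, 15 rose and none fell, with median log2 differences of 1.11 and 0.95. Among all genes tested, 8.15% were higher with both and 3.18% rose. Unlike the cell cycle genes, the list held a similar share of reads with each hairpin, 0.757% with shDDX18#1 and 0.849% with shDDX18#3, against 0.349% with shLuc. CDKN1A, the inhibitor p21 of cyclin-dependent kinases, had 1238 CPM with shDDX18#1 and 445 CPM with shDDX18#3, against 102 CPM with shLuc (log2 change 2.85, SE 0.49, adjusted p = 0.00731). MDM2, the ubiquitin ligase that acts on p53, had 410 and 388 CPM, against 117 CPM (1.75, adjusted p = 0.0111). CDKN1A was much higher with shDDX18#1 than with shDDX18#3, while MDM2 was level between them. The death receptor gene FAS had 63.7 and 52.8 CPM, against 8.03 CPM with shLuc (2.71, adjusted p = 0.00287), with the uncertainty about overlap given above. BTG2, an antiproliferative gene, had 199 and 218 CPM, against 38.8 CPM (2.40, adjusted p = 0.00207), and SPATA18, a gene of mitochondrial quality control, had 43.7 and 28.2 CPM, against 4.71 CPM (2.66, adjusted p = 0.00749). BAX, a pore former of apoptosis, was level at 202 and 203 CPM, against 208 CPM with shLuc (-0.04, adjusted p = 0.973). Of 26 genes of the apoptosis machinery, 2 were higher with both hairpins, about the share of all genes tested, and none rose or fell.

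Most genes for the nucleolus and the ribosome lay below the control with both hairpins, and few passed either rule. Over all genes tested, 2.06% were lower with both and 0.485% fell. NAT10, the RNA acetyltransferase of 18S ribosomal RNA, had 52.7 CPM with shDDX18#1 and 49.6 CPM with shDDX18#3, against 152 CPM with shLuc (log2 change -1.55, SE 0.33, adjusted p = 0.0216). It was the only member called among 46 genes of the small subunit processome and 40S assembly, whose medians were -0.68 and -0.48. Of 47 genes of 60S assembly, 1 was lower with both hairpins and none fell, with medians of -0.81 and -0.43. Among 20 nucleolar scaffold and box particle proteins, all 20 lay below 0 with each hairpin, 1 was lower past 2-fold with both and none fell, with medians of -1.22 and -0.55. NPM1, the main protein of the granular layer of the nucleolus, had 640 and 994 CPM, against 1787 CPM with shLuc (-1.16, adjusted p = 0.173), and NCL, nucleolin, had 611 and 924 CPM, against 1722 CPM (-1.19, adjusted p = 0.155). Both were lowest with shDDX18#1 and highest with shLuc, and neither passed the test. Of 25 genes for nucleolar and other DEAD-box and DEAH-box helicases, 3 were lower with both hairpins, DDX18, DHX37 and DDX55, and only DDX18 fell. DHX37 had 50.2 and 62.2 CPM, against 130 CPM (-1.20, adjusted p = 0.0727), and DDX55 had 22.9 and 22.4 CPM, against 49.8 CPM (-1.11, adjusted p = 0.151). None of 18 genes of the RNA polymerase I machinery was called by either rule (medians -0.70 and -0.36). Of 22 small nucleolar RNA host genes, SNHG4 was the 1 lower with both, at 4.90 and 10.4 CPM, against 26.6 CPM with shLuc, and none fell.

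No cytosolic ribosomal protein gene was called among 76 by either rule. The list's medians were -0.69 with shDDX18#1 and -0.38 with shDDX18#3, and its share of reads was 3.12% and 4.09%, against 5.48% with shLuc. RPL3, a core protein of the large subunit, had 750 and 1181 CPM, against 2014 CPM with shLuc (log2 change -1.10, adjusted p = 0.217). None of 41 translation factors was called (medians -0.42 and -0.27). The genes higher with both hairpins took up 20.0% of reads with shDDX18#1 and 11.5% with shDDX18#3, against 3.05% with shLuc, and their part in the lower ribosomal share was not tested.

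**Figure D2:**
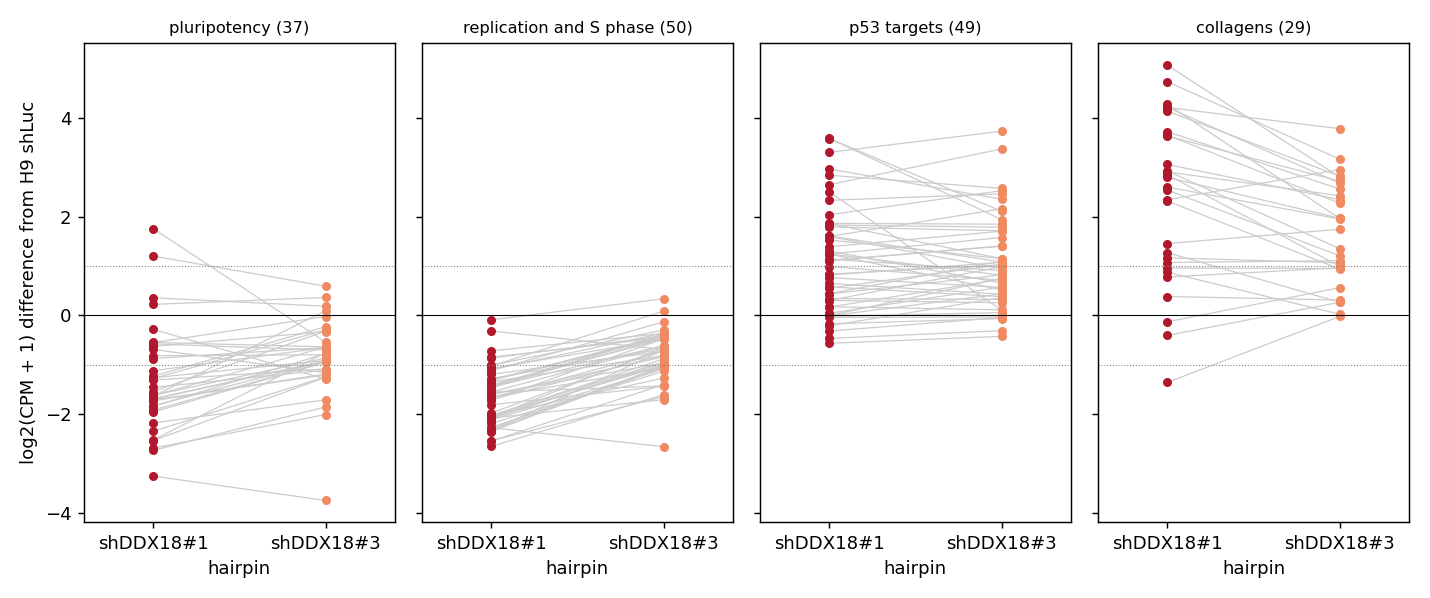
Each point is 1 tested gene of 4 lists, on an axis of log2(CPM + 1) difference from H9 shLuc, with a line joining its values with shDDX18#1 and shDDX18#3. Replication genes lie lower with shDDX18#1 (median -1.63) than with shDDX18#3 (median -0.72), p53 targets lie about level (1.11 and 0.95), and collagens lie higher with shDDX18#1 (2.60 and 1.75).

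Collagens and other extracellular matrix genes showed some of the largest differences. Of 29 collagen genes tested, 19 were higher with both hairpins and 15 rose, and none was lower. Over all genes tested, 8.15% were higher with both and 3.18% rose. Of 43 matrix glycoproteins and remodelers, 29 were higher with both and 24 rose, and none was lower. The matrix list held 7.06% of reads with shDDX18#1 and 3.18% with shDDX18#3, against 0.804% with shLuc, and the collagen list 4.87% and 2.08%, against 0.496%. COL1A1, a chain of fibrillar type I collagen, had 18386 and 6175 CPM, against 687 CPM with shLuc (log2 change 3.95, SE 0.69, adjusted p = 0.0078). FN1, fibronectin, had 51833 and 17115 CPM, against 2424 CPM (3.62, SE 0.89, adjusted p = 0.0414). COL12A1, a fibril-associated collagen, had 1144 and 607 CPM, against 91.1 CPM (3.18, adjusted p = 0.00159), and FBN1, fibrillin of the microfibrils, had 1003 and 470 CPM, against 59.2 CPM (3.51, adjusted p = 0.00135). For these genes the shDDX18#1 library was the highest by far, and shDDX18#3 lay between it and the control. The changes of COL6A3, COL3A1, COL8A1, TIMP3 and LAMA4 lay between 3.45 and 3.94 on the log2 scale.

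Markers of fibroblasts moved with these genes. The list of 32 fibroblast and feeder markers shares 7 members with the collagen list and 13 with the matrix list. Of these markers, 24 were higher with both hairpins and 20 rose, beside 8.15% and 3.18% of all genes tested. They summed to 108549 CPM with shDDX18#1 and 42677 CPM with shDDX18#3, against 8543 CPM with shLuc, which is 9.96% and 4.14% of reads, against 0.846%. A narrower list of 10 fibroblast-defining markers had 8 in the table, of which 7 were tested, and 5 of the 7 are also among the 32. Of the 7 tested, 6 were higher with both. The list held 0.590% and 0.242% of reads, against 0.0522% with shLuc, a sum of 6430 and 2495 CPM, against 527 CPM. COL1A2 made up most of that sum, at 5995 and 2303 CPM, against 475 CPM. Of the others, PDGFRB, a receptor of mural and mesenchymal cells, had 237 and 106 CPM, against 19.1 CPM with shLuc, and the proteoglycan gene DCN had 44.9 and 14.3 CPM, against 5.54 CPM. COL14A1, the tested member not higher with both, had 35.5 and 17.2 CPM, against 14.1 CPM. TCF21 was at 0 with shLuc and had 0.408 and 0.648 CPM with the hairpins, and DPT and PI16 were not in the table. The cells were grown on mouse fibroblasts, whose reads in conserved sequence can align to the human genome, and whether feeder cells, differentiating H9 cells or both gave these reads was not tested. In bulk RNA, more cells of a type and more RNA per cell cannot be told apart. Outside the fibroblast and feeder list, 13 of 22 collagens and 18 of 30 matrix genes were higher with both, and 1337 of 16673 genes in all. The list does not hold every gene that fibroblasts express. These counts, and those like them below, therefore describe overlap between lists only.

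**Figure D3:**
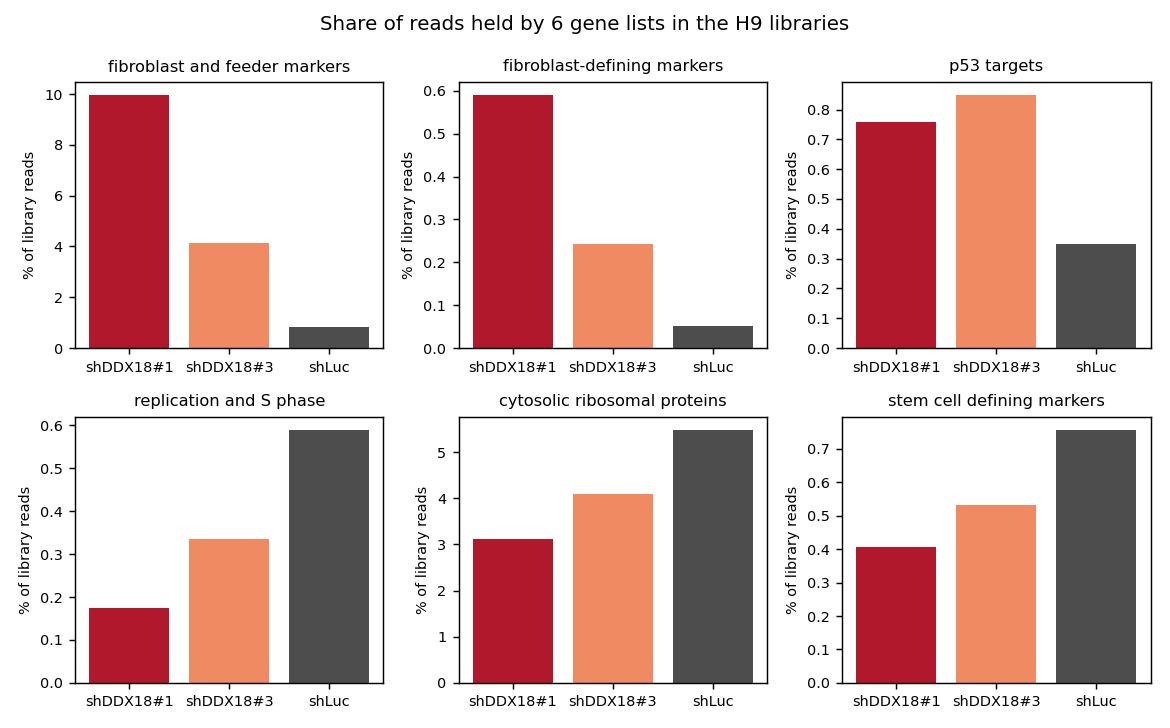
Bars give the percent of library reads held by 6 gene lists with shDDX18#1, shDDX18#3 and shLuc in H9, 1 library per bar, on axes that start at 0 and differ between panels. Fibroblast and feeder markers held 9.96%, 4.14% and 0.846% in that order, cytosolic ribosomal proteins 3.12%, 4.09% and 5.48%, and p53 targets 0.757%, 0.849% and 0.349%.

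Of 19 genes of epithelial to mesenchymal transition, 8 were higher with both hairpins and 6 rose. The list's median log2 differences were 1.37 with shDDX18#1 and 0.62 with shDDX18#3. Besides regulators, the list holds the cadherin gene CDH11, which rose, and the filament gene VIM, which was not called. ZEB1, a repressor of epithelial genes, had 58.0 and 27.2 CPM, against 4.43 CPM with shLuc (log2 change 2.91, adjusted p = 0.00726), and SNAI2 had 71.1 and 28.9 CPM, against 6.37 CPM (2.65, adjusted p = 0.0126). TWIST1 and PRRX1, factors of embryonic mesenchyme, rose by 2.60 and 2.80. All 4 were highest with shDDX18#1, and 26 of the 32 fibroblast and feeder markers were higher with shDDX18#1 than with shDDX18#3. Below the control with both hairpins were 6 members of the list, 4 of them the epithelial factors ESRP1, ESRP2, GRHL2 and OVOL2, with SNAI1 and TCF3; none of the 6 was past 2-fold with both. Of 17 integrin subunits, 9 were higher with both hairpins and 6 rose, and the integrin and fibroblast lists share no member. Beside these counts, 8.15% of all genes tested were higher with both and 3.18% rose. ITGAV had 556 and 340 CPM, against 73.9 CPM (2.54, adjusted p = 0.00287), and ITGA3, a laminin receptor subunit, had 177 and 304 CPM, against 57.0 CPM (2.01, adjusted p = 0.0104). ITGA3 was highest with shDDX18#3. Of 26 genes for epithelial junctions and keratins, 1 was higher with both: KRT19 rose to 300 CPM with shDDX18#1 and 252 CPM with shDDX18#3, against 106 CPM with shLuc (1.36, adjusted p = 0.0367).

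Of 26 TGF-beta ligands, receptors and responses, 23 lay above the control with both hairpins. Of the list, 13 were higher with both hairpins and 10 rose, and 12 of the 25 outside the fibroblast list were higher. Among all genes tested, 8.15% were higher with both and 3.18% rose. INHBA, a subunit of activin A, had 115 and 42.8 CPM, against 4.15 CPM with shLuc (log2 change 3.79, adjusted p = 0.00214). TGFBI, a matrix protein induced by TGF-beta, had 1363 and 370 CPM, against 54.5 CPM (3.68, adjusted p = 0.00362). TGFB2, given above, had 32.7 and 27.6 CPM, against 1.94 CPM. TGFB2 was level between the hairpins, and INHBA and TGFBI were highest with shDDX18#1. Of 14 genes of NODAL and LEFTY signaling, 1 was lower with both hairpins and none was higher, beside 2.06% and 8.15% of all genes tested. Their median log2 differences were 0.14 with shDDX18#1 and -0.26 with shDDX18#3. Above the control with both hairpins were 6 members, and 6 lay below it with both. The 1 lower was FOXH1, the DNA-binding partner of SMAD2. FOXH1 had 18.0 and 34.4 CPM, against 102 CPM with shLuc (-1.99, adjusted p = 0.0205).

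Of 30 targets of YAP and TEAD, the effectors of Hippo signaling, 26 lay above the control with both hairpins. Of the list, 13 were higher with both hairpins and 12 rose, and 10 of the 27 outside the fibroblast list did both. Among all genes tested, 8.15% were higher with both and 3.18% rose. ANKRD1, a nuclear ankyrin repeat protein, had 221 and 124 CPM, against 17.4 CPM with shLuc (log2 change 3.18, SE 0.38, adjusted p = 0.00135). CCN2, a secreted matricellular protein, had 405 and 480 CPM, against 111 CPM (1.98, adjusted p = 0.00701). CCN2 lay about level with both hairpins, while ANKRD1 was higher with shDDX18#1. MYOF, a membrane repair protein, had 300.2 and 194 CPM, against 33.8 CPM (2.80, adjusted p = 0.00159).

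TEAD factors bind GGAATG, and the promoters of ANKRD1 and CCN2 are shown because both rose and both hold it. ANKRD1 (chr10:90921038-90921337, minus strand) has 2 matches and CCN2 (chr6:131951323-131951622, minus strand) has 3, all on the strand of the gene. Capitals mark the matches, searched on both strands of the same windows.
ANKRD1: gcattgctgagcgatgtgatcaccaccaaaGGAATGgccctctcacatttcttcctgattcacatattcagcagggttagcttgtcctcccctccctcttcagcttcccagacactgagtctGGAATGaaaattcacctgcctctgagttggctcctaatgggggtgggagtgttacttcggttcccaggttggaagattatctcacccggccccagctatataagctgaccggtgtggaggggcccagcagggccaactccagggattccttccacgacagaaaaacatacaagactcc
CCN2: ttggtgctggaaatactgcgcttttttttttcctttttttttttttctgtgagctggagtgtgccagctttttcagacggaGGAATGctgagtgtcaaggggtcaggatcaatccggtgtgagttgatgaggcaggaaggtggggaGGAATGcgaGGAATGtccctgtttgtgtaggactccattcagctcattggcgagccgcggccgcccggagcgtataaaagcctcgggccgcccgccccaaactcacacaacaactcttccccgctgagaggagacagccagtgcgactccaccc
These letters occur in 14.03% of all promoters. They occur in 11 of the 22 YAP and TEAD targets with a promoter sequence and in 5 of the 10 of these that were higher with both hairpins.

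Of 28 targets of SRF and smooth muscle genes, 10 were higher with both hairpins and 6 rose, with medians of 0.80 and 0.96. Over all genes tested, 8.15% were higher with both, 2.06% were lower with both and 3.18% rose. ACTG2, the enteric smooth muscle actin, had 96.0 and 139 CPM, against 36.3 CPM with shLuc (log2 change 1.65, adjusted p = 0.0217). Of 14 cardiac and striated muscle genes, 7 were higher with both, 6 rose and 1 was lower, while 5 lay below 0 with both. NPPB, the precursor of a natriuretic peptide, had 238 and 124 CPM, against 13.6 CPM (3.56, adjusted p = 0.00123), and MYL7, an atrial myosin light chain, had 52.7 and 64.8 CPM, against 10.5 CPM (2.37, adjusted p = 0.00531). TTN, titin, had 505 and 240 CPM, against 77.2 CPM (2.16, adjusted p = 0.0123). The actin and MYL7 were highest with shDDX18#3, and NPPB and TTN with shDDX18#1. MYOCD, a coactivator of SRF on the smooth muscle list, rose by 2.13.

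Genes of several lineages were higher with both hairpins, with fewer of them called. The counts stand beside 8.15% higher, 2.06% lower, 3.18% that rose and 0.485% that fell over all genes tested. Of 20 endoderm genes, 7 were higher with both and 6 rose. HNF4A, a hepatic and visceral endoderm factor, had 73.5 and 34.0 CPM, against 4.98 CPM with shLuc (log2 change 3.09, adjusted p = 0.00422), and CXCR4, a chemokine receptor of definitive endoderm, had 242 and 92.4 CPM, against 24.9 CPM (2.54, adjusted p = 0.0102). GATA6 had 221 and 120 CPM, against 54.3 CPM (1.57, adjusted p = 0.04), and GATA4 had 119 and 64.8 CPM, against 29.1 CPM (1.56, adjusted p = 0.0467). All 4 were highest with shDDX18#1. Of 24 mesoderm genes, 11 were higher with both, 2 were lower, 7 rose and 1 fell. Outside the fibroblast and feeder list, 10 of 22 were higher with both and 6 rose. PDGFRB, SNAI2, TWIST1, FOXC2, MYL7 and MYL4 are also on the fibroblast-defining, mesenchymal transition or cardiac lists, so these counts are not separate. The 2 lower were KDR, a VEGF receptor of early mesoderm, which fell to 55.1 and 93.7 CPM, against 223 CPM, and TBXT, the primitive streak factor brachyury, with 6.53 and 3.89 CPM, against 18.5 CPM, which did not pass the test. Of 16 trophoblast and amnion genes, 7 were higher with both and 2 rose, among them GATA3, at 34.7 and 12.6 CPM, against 3.05 CPM (2.45, adjusted p = 0.0377). Of 14 neural ectoderm genes, 6 were higher with both and none rose or fell. PAX6, a neural plate factor, had 14.3 and 3.89 CPM, against 1.11 CPM (2.04, adjusted p = 0.143). Of 17 HOX genes, 8 were higher with both and none passed the test, all from low levels. HOXC6 had 26 reads with shDDX18#1 and 9 with shDDX18#3, against 0 with shLuc. Set against a floor of 3 reads in shLuc, its levels were 12.8-fold and 3.51-fold higher. The 95% counting intervals of its ratios to shLuc began at 9.68 and 2.31. None of 5 blood and endothelial markers was called.

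Other signaling lists held members in both directions, beside 8.15% of all genes higher and 2.06% lower with both hairpins. Over all genes tested, 3.18% rose and 0.485% fell. Of 35 WNT genes, 5 were higher with both hairpins, 2 lower, 3 rose and 2 fell. GREM1 is a secreted antagonist, and DKK3 is a secreted member of the Dickkopf family. DKK3, from the WNT list, had 128 and 82.3 CPM, against 18.3 CPM with shLuc (log2 change 2.43, adjusted p = 0.00376), and GREM1, from the BMP list, had 764 and 275 CPM, against 38.8 CPM (3.53, adjusted p = 0.00214). GREM1 was the 1 that rose among 23 BMP genes, of which 6 were higher with both and 2 lower. FRZB and FZD4, an antagonist and a receptor of WNT ligands, were the other 2 WNT genes that rose. SP5, a direct target of beta-catenin, had 42.9 and 61.6 CPM, against 156 CPM (-1.58, adjusted p = 0.0256), and SFRP2, a secreted modulator of WNT ligands, had 102 and 149 CPM, against 340 CPM (-1.46, adjusted p = 0.0343). Of 23 FGF and ERK feedback genes, 2 were higher, 3 lower, 1 rose and 2 fell. ETV1, a factor induced by FGF signaling, had 18.8 and 20.4 CPM, against 76.4 CPM (-1.91, adjusted p = 0.016), and the phosphatase gene DUSP4 had 187 and 85.6 CPM, against 37.4 CPM (1.73, adjusted p = 0.0389). Within 1 feedback list, a factor fell and a phosphatase rose. Of 19 NOTCH genes, 1 rose and 1 fell, and both are HES genes, transcriptional repressors. HES4 had 19.2 and 12.3 CPM, against 0.831 CPM (3 reads) with shLuc (3.16, adjusted p = 0.00876), and HES3 had 0.408 and 0.648 CPM (1 and 2 reads), against 8.03 CPM (-2.57, adjusted p = 0.0377).

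Of 16 genes of the IGF axis, 7 were higher with both hairpins and 6 rose, beside 8.15% and 3.18% of all genes tested. IGFBP3, which binds IGF in the medium, had 898 and 341 CPM, against 34.3 CPM with shLuc (log2 change 3.97, adjusted p = 0.00135). The imprinted neighbours IGF2, a fetal growth factor, and H19, a long noncoding RNA, had 115 and 164 CPM, against 36.0 CPM, and 518 and 526 CPM, against 131 CPM, with changes of 1.9 and 1.99. IGF2 and H19 did not favour shDDX18#1 as IGFBP3 did. Of 21 AP-1 and immediate early genes, 8 were higher with both, 1 lower and 5 rose. JUN had 198 and 149 CPM, against 40.1 CPM (2.07, adjusted p = 0.00545), and FOSL2 had 129 and 72.9 CPM, against 19.9 CPM (2.23, adjusted p = 0.00826). MYC was the 1 lower with both, at 33.9 and 39.5 CPM, against 88.6 CPM, and did not pass the test (-1.25, adjusted p = 0.0724). Of 17 inflammatory genes and secreted cytokines, a list that also holds intracellular and surface proteins such as NFKBIA and ICAM1, 9 were higher with both and 4 rose. LIF, a cytokine of the IL6 family, had 130 and 66.8 CPM, against 14.7 CPM (2.59, adjusted p = 0.00502), and HBEGF, an EGF receptor ligand, had 84.9 and 50.6 CPM, against 6.09 CPM (3.23, adjusted p = 0.00185). Of 22 interferon-stimulated genes, 2 were higher with both, 1 lower and 1 rose, near the shares of all genes tested (8.15%, 2.06% and 3.18%). The 1 that rose was IFI44L, with 10 and 14 reads, against 0 with shLuc. Against a floor of 3 reads, IFI44L was 4.92-fold and 5.46-fold higher. The 95% counting intervals of its ratios to shLuc began at 3.31 and 3.88.

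Metallothioneins, small proteins that bind zinc and copper, were lower. The list held 9 tested genes, 7 metallothioneins with the zinc exporter gene SLC30A1 and the metal-responsive factor gene MTF1; 6 were lower with both hairpins and 4 fell, all of them metallothioneins, with medians of -1.71 with shDDX18#1 and -1.48 with shDDX18#3. This was the only list of 55 whose median was at least 2-fold lower with each hairpin. Over all genes tested, 2.06% were lower with both and 0.485% fell. MT1G had 5.31 and 2.92 CPM, against 32.7 CPM with shLuc (log2 change -2.76, SE 0.55, adjusted p = 0.0157), and MT1H had 2.04 and 1.30 CPM, against 14.4 CPM (-2.54, SE 0.59, adjusted p = 0.032). MT1E had 26.1 and 27.2 CPM, against 73.9 CPM (-1.44, adjusted p = 0.0483), and MT1F had 12.7 and 13.6 CPM, against 44.0 CPM (-1.67, adjusted p = 0.0488). The hairpin libraries lay close together and below the control for these 4 genes. MT2A, the most abundant member, had 167 and 73.3 CPM, against 129 CPM, and lay above the control with shDDX18#1 and below it with shDDX18#3. MTF1 was about level, at 20.0 and 15.9 CPM, against 20.5 CPM. The 7 metallothionein genes are close copies on chromosome 16, and reads may be split between them.

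Metallothionein genes carry metal response elements, and the letters TGCNCNC, a loose form of their core, were searched. The promoter of MT1H (chr16:56669564-56669863, plus strand) is shown as the member with the second largest fall. It holds 8 matches, 5 on the strand of the gene and 3 on the other, in capitals.
MT1H: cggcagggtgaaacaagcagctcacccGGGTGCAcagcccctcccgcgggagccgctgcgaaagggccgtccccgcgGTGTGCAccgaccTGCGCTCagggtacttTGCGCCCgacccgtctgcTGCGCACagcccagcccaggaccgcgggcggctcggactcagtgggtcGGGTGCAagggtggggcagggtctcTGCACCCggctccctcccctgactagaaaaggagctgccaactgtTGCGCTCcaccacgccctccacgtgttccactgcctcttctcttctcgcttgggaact
The searched letters are few and loose, and occur in 55.9% of all promoters. They occur in 5 of the 5 list members with a promoter sequence, MT1H, MT1X, MT2A, SLC30A1 and MTF1.

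Metabolic lists differed in their counts, to be read beside the 8.15% of all genes higher with both, 2.06% lower with both, 3.18% that rose and 0.485% that fell. Of 26 cholesterol synthesis genes, 1 was lower with both hairpins and none fell. HMGCS1, an early enzyme of that pathway, had 227 and 148 CPM, against 449 CPM with shLuc (log2 change -1.29, adjusted p = 0.0683). Of 12 fatty acid genes, 3 were lower and 1 higher with both, and none was called by limma. SREBF1, a regulator of lipid synthesis, had 40.8 and 35.3 CPM, against 96.9 CPM (-1.33, adjusted p = 0.0541). HMGCS1 and SREBF1 were lowest with shDDX18#3, the reverse of most genes described. Of 21 glycolysis genes, ALDOC fell to 8.98 and 17.2 CPM, against 53.4 CPM (-2.01, adjusted p = 0.0323). Of 16 hypoxia genes, 5 were higher with both and 4 rose, among them VEGFA, an angiogenic ligand, at 247 and 105 CPM, against 46.5 CPM (1.77, adjusted p = 0.0403). PDK1, a kinase that inhibits pyruvate dehydrogenase, fell, at 34.3 and 30.1 CPM, against 86.7 CPM (-1.40, adjusted p = 0.0478). None of 49 nuclear oxidative phosphorylation genes and none of 13 mitochondrially encoded genes was called, and the mitochondrially encoded list held 3.84% and 4.87% of reads, against 5.03%. No gene of the lists for ATF4 and amino acid stress (27), folding in the endoplasmic reticulum (24), cytosolic heat shock (17) or NRF2 and iron (22) rose or fell, with 1, 1, 3 and 3 members higher with both.

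Of 13 genes of DNA methylation, 3 were lower with both hairpins, 1 was higher and 2 fell, beside 2.06% of all genes lower and 0.485% that fell. TET1, a 5-methylcytosine oxidase, had 45.7 and 68.4 CPM, against 151 CPM with shLuc (log2 change -1.42, adjusted p = 0.0455), and DNMT3B, given above, was the other that fell. CBX2, a Polycomb subunit, had 45.3 and 59.3 CPM, against 134 CPM (-1.36, adjusted p = 0.0471), the only call among 26 Polycomb genes. Of 22 genes of the nuclear lamina and heterochromatin, 2 were higher with both hairpins, 1 was lower, 1 rose and 1 fell. Over all genes tested, 8.15% were higher with both and 3.18% rose. Below the control with both hairpins were 17 of the 22, and the list's medians were -0.76 with shDDX18#1 and -0.35 with shDDX18#3. Among the lamins, LMNA and LMNB1 moved in opposite directions. LMNA, the lamin of differentiated cells, had 528 and 465 CPM, against 166 CPM (1.57, adjusted p = 0.0225), while LMNB1, a B-type lamin, had 97.6 and 163 CPM, against 346 CPM (-1.45, adjusted p = 0.0457).

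**Figure D4:**
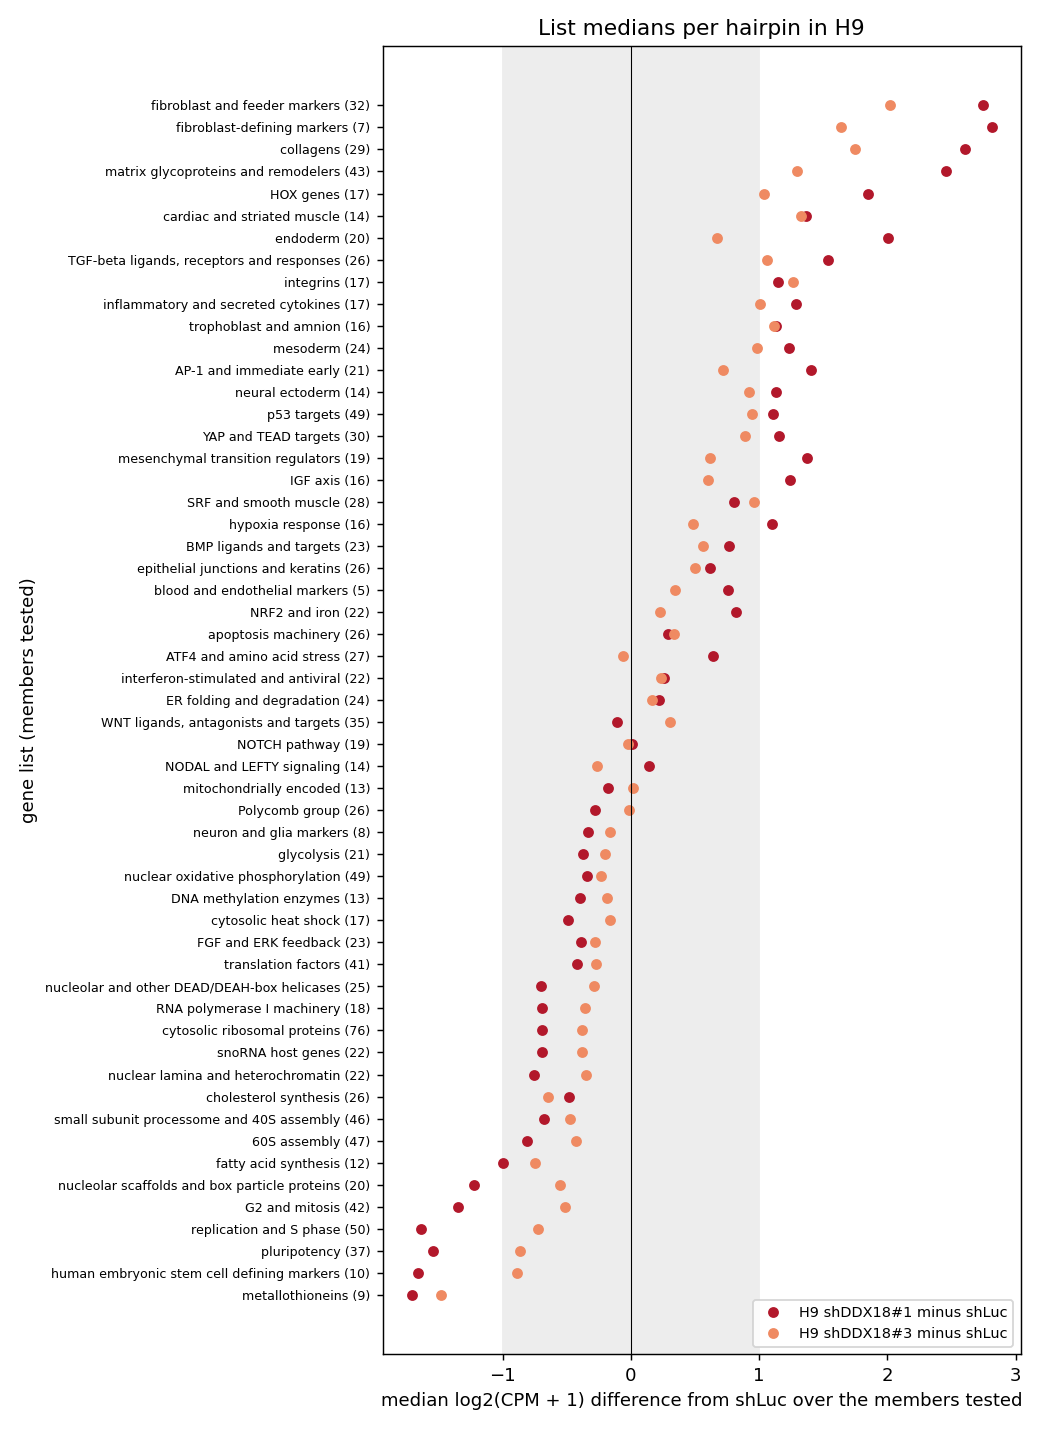
Each row is 1 of 55 gene lists with its number of tested members, and points give the median log2(CPM + 1) difference from H9 shLuc over those members with shDDX18#1 and with shDDX18#3; the grey band marks differences under 2-fold. Fibroblast markers, collagens and matrix genes lie at the top, metallothioneins, stem cell markers and replication genes at the bottom, and 10 lists have a median at least 2-fold higher with each hairpin.

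Changes were spread over expression levels, gene classes and chromosomes. Among genes averaging 1 to 5 CPM, 348 of 3959 were higher with both hairpins and 102 lower, but only 9 rose and 4 fell by limma. Among the 2254 genes over 100 CPM, 177 were higher and 24 lower, and 142 rose and 19 fell. Protein-coding genes made up 1130 of the 1361 higher (83.0%) and 275 of the 344 lower genes (79.9%), beside 80.4% of all genes tested. Of 463 long intergenic noncoding RNAs tested, 48 were higher with both (10.4%) and 16 lower (3.46%). Among these, named after their values were seen, NEAT1, the scaffold RNA of paraspeckles, rose to 118 and 48.6 CPM, against 14.1 CPM with shLuc, and HPAT5, a primate-specific RNA of pluripotent cells, fell to 17.2 and 41.5 CPM, against 124 CPM. By chromosome, the share of tested genes higher with both ran from 4.40% on chromosome 19 to 11.4% on chromosome 2.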

How the data were processed

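RNA from H9 cells was sequenced after TruSeq library preparation, per the labels' protocols. Bowtie2 2.3.4.3, SAMtools 1.9, HTSeq 0.11.2, edgeR 3.26.8 and the build hg19 are named in the submitters' processing notes, with no settings; the strand setting is not given in the sources used here. The deposited values are a TMM-scaled signal per gene, in CPM of the effective library size, as named by the file headers. Every value was a whole multiple of 1 read (largest deviation 6.4e-05, tolerance 0.001), so read counts were recovered from the deposited signal for counting intervals (exact binomial, 95%, which cover counting error only) and for edgeR 4.0.16 and DESeq2 1.42.0 as alternatives.

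Differences were taken on log2(CPM + 1), with a filter of mean 1 CPM over the 3 H9 libraries. limma 3.58.1 (R 4.3.3) was fitted with a variance trend, knockdown against shLuc, with Benjamini-Hochberg adjustment over 16705 genes; the prior had 12.18 degrees of freedom and the residual 1. The labels name no separate cultures, and the p-values reflect no more than how far these samples spread, which may be technical and includes any difference between hairpins.

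Named genes were DDX18, the 12 rises and 12 falls with the largest smaller-of-both-hairpins change (mean at least 5 CPM), up to 6 called members per list and up to 2 others; further members were named after their values were seen. The comparison and the 55 lists were chosen with earlier results of these data known. Symbols came from the table (15532), from a gene name table (600) or were missing (1797). Promoters are RefSeq sequences of GRCh38.p14, matched by symbol; gene type and chromosome came from GENCODE by gene ID. Sequences of the hairpins and of the DDX18 protein were not used here. Some named genes are not reported here.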

Additional observations from a re-analysis of the deposited data

Results flagged for a closer look

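4 genes passed 2-fold in opposite directions with the hairpins, which was what drew attention to them; the difference between the hairpins was not tested, and none of the 4 was called by limma. PADI3 had 0 CPM with shDDX18#1 and 5.51 CPM with shDDX18#3, against 1.11 CPM with shLuc, a difference of shDDX18#3 from shDDX18#1 of 2.70 on the log2 scale. EAF2 had 0 and 3.24 CPM, against 1.11 CPM with shLuc, a difference of 2.08. SLC15A3, a peptide and histidine transporter, had 2.86 and 14.9 CPM, against 6.92 CPM with shLuc, a difference of 2.04. COPS8-DT had 4.49 and 0 CPM, against 1.66 CPM with shLuc, a difference of -2.46. With so few reads, counting intervals left out a ratio of 1 with both hairpins in 1 of the 4.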

How the results depend on the processing

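No paired analysis was possible because each hairpin and the control has 1 library in H9. The change of DDX18 was -2.3 without the filter, without the trend and with a robust prior, where its adjusted p was 0.285, 0.164 and 0.0505. The 531 rises became 333 with a pseudocount of 4, 0 without the filter, 0 without the trend and 933 with scaling by total reads; the 81 falls became 0, 0 and 368 in the last 3 of these, 38 with a filter of 5 CPM, 52 with a robust prior and 30 with DESeq2, which called 358 rises (edgeR, 390 and 70). The 1361 genes higher with both became 715 (pseudocount 4), 2652 (1.5-fold) and 246 (4-fold), and 1738 to 2613 with 1 hairpin left out; the 344 lower became 183, 1497 and 15, and 537 to 1729. The 4 opposite genes became 29 (pseudocount 0.25), 0 (pseudocount 4), 1 (5 CPM), 2 (median-of-ratios scaling), 1 (total reads), 64 (1.5-fold), 0 (4-fold) and 1 (counting intervals). The 10 lists with a median 2-fold higher became 4 with a pseudocount of 4, and 10 to 19 with 1 hairpin left out; the 1 lower became 1 to 6. The cause was not tested, beyond the change in threshold or samples itself. Of 126 named genes called by limma, 105 were also called by edgeR and 84 by DESeq2. No direction reversed under any alternative. As all of these genes were past 2-fold the same way with each hairpin, most alternatives could not have reversed one. Under scaling by total reads the median log2 difference of all genes was -0.12 with shDDX18#1 and -0.02 with shDDX18#3, against -0.02 and 0.00 as reported. Depth limits genes near 1 CPM, where 3 reads are 1.23, 0.973 and 0.831 CPM in shDDX18#1, shDDX18#3 and shLuc.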
